A study of Mus musculus with 23 samples.

Results

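The unfolded protein response and the integrated stress response were described here through 42 genes of known roles, listed by name with earlier results of these data known, of the 29894 genes in the tables of 3 tissues. They form a chaperone arm of 20 genes, from Hspa5 to Derl3, and an ATF4 arm of 22 genes, from Atf4 to Eif4ebp1. All 42 were present once in each table, and the row of Ddit3 joins 2 gene identifiers. The mice were C57BL/6, an inbred laboratory strain, and were given oxaliplatin at 10 mg/kg or vehicle for 8 weeks. Oxaliplatin is a platinum drug that crosslinks DNA and is used against colorectal cancer. RNA was sequenced from the tibialis anterior muscle of 5 oxaliplatin and 4 vehicle mice, and from subcutaneous white fat and hypothalamus of 4 oxaliplatin and 3 vehicle mice each. Oxaliplatin and vehicle mice share the strain, and age and sex are not given in the labels used here. The muscle library titled oxaliplatin mouse 5 carries vehicle as its treatment entry. It was counted as oxaliplatin, as its title has it. The question was whether oxaliplatin changed the levels of these transcripts in each tissue.

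The unfolded protein response is set off when unfolded proteins gather in the endoplasmic reticulum (ER). Its sensors IRE1, PERK and ATF6 act through the transcription factors XBP1, ATF4 and the cleaved ATF6, which raise ER chaperones and the genes of ER-associated degradation, the route by which misfolded proteins leave the ER for the proteasome. The integrated stress response joins PERK with the kinases GCN2, PKR and HRI, which sense lack of amino acids, double-stranded RNA and lack of haem. All of them phosphorylate the translation factor eIF2 alpha, which lowers protein synthesis but favours translation of ATF4. ATF4 then raises genes for amino acid uptake, the synthesis of serine, asparagine and proline, and mitochondrial folate metabolism.

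Promoters were searched for the elements to which ATF6, XBP1 and ATF4 are known to bind, and some of them held a match. RefSeq promoter windows (GRCm38.p6, from 250 bases before the start of transcription to 50 after it) were matched by symbol for 36 of the 42 genes, 18 in each arm. The ER stress response element (ERSE, the letters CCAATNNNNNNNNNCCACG on either strand, where N is any base) was found in 8 of 18 chaperone promoters (44.4%), in 0 of 18 ATF4-arm promoters, and in 37 of the 27025 genes with a promoter window (0.137%). ERSE-II (ATTGG, any base, then CCACG, on either strand) was in the windows of Herpud1 and Dnajb11, against 12 of all 27025 genes (0.0444%). The unfolded protein response element (UPRE, TGACGTG on either strand) was in that of Hspa5 alone among the 36, against 2.22% of all genes. The C/EBP-ATF response element (CARE, TGATGNAA on either strand), known as a binding site of ATF4, was found in 7 of 18 ATF4-arm windows (38.9%), those of Trib3, Asns, Chac1, Pck2, Nupr1, Vldlr and Pycr1, and in the chaperone arm in that of Herpud1 alone. It was in 4.51% of all windows. The CCAAT box (CCAAT), which is a part of every ERSE match, was in 94.4% of chaperone-arm, 66.7% of ATF4-arm and 41.1% of all windows. A match describes the letters only, and these promoters were not assayed in the mice.

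The ERSE matches of the 8 chaperone genes that hold one are shown together so that their letters can be compared. Each is read from its CCAAT box to its CCACG box, in capitals, with the 9 bases between them in lower case:
Hspa5: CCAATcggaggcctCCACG
Hsp90b1, farther from the start: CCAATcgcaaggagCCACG
Hsp90b1, nearer to the start: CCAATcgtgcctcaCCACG
Dnajc3: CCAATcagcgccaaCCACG
Pdia6: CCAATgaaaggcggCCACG
Creld2: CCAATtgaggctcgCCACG
Calr: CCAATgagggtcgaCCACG
Syvn1: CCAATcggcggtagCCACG
Derl3: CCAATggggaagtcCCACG

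The 250 bases before the start are shown for 2 chaperone genes and 2 ATF4-arm genes whose fat values are given further on. Each is written 5' to 3' on the strand of the gene, with ERSE, UPRE and CARE matches in capitals:
Hspa5, chr2:34771840-34772089, plus strand: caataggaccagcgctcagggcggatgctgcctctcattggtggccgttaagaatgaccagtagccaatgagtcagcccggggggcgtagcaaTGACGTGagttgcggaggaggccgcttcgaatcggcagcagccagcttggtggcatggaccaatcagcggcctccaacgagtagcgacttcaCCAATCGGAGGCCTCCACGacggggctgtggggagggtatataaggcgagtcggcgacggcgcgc
Creld2, chr15:88819396-88819645, plus strand: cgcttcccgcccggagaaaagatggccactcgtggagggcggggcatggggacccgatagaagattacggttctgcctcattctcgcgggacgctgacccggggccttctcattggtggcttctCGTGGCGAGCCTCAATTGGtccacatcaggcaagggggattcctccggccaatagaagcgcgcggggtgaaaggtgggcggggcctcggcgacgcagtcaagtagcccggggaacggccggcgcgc
Asns, chr6:7693210-7693459, minus strand: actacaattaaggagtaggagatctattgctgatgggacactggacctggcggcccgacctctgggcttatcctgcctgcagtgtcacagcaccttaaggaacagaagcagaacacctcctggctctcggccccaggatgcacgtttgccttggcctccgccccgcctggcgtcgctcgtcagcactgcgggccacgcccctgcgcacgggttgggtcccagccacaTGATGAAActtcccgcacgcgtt
Pck2, chr14:55540016-55540265, plus strand: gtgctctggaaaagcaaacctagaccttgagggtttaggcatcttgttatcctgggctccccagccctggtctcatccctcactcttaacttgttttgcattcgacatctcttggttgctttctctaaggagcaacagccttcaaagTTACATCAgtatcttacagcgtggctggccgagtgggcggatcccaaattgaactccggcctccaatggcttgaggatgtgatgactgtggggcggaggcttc
In Hspa5 the capitals mark a UPRE at positions -157 to -151 and the ERSE at -65 to -47, counted from the start. In Creld2 the ERSE lies on the other strand at -126 to -108. In Asns the CARE match is at -23 to -16, and in Pck2 it lies on the other strand at -103 to -96.

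Levels are CPM, the counts of a gene per 1000000 counts of its library, with totals scaled by TMM factors, and each change is the log2 ratio of oxaliplatin to vehicle, with its SE. In units of 1000000 counts, library totals were 22.4 to 32.2 for oxaliplatin and 27.3 to 31.2 for vehicle in muscle, 16.5 to 17.99 for oxaliplatin and 16.9 to 22.7 for vehicle in fat, and 23.6 to 26.4 for oxaliplatin and 27.3 to 28.5 for vehicle in hypothalamus. A gene was called at a Benjamini-Hochberg adjusted p under 0.05 over all genes tested in a tissue, by edgeR's quasi-likelihood test. That test called 24 genes in muscle (0.163% of those tested), 0 in fat (0%) and 28 in hypothalamus (0.148%). None of the 42 genes was among them in any tissue. Nothing in the labels says whether mice of a group shared a cage or litter, so the p-values measure the spread between these animals.

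Some fat libraries stood apart from the rest of their group. The 6 fibroblast markers, all detected in every library, summed to 637 to 9311 CPM in oxaliplatin fat and 5086 to 6866 CPM in vehicle fat. Their mean log2 level lay 3.71, 2.99 and 3.25 below the vehicle mean in oxaliplatin mice 2, 3 and 4 and 0.11 above it in mouse 5. The 7 adipocyte markers, all above 1 CPM in every library, summed to 5682 to 9410 CPM with oxaliplatin and 9220 to 12302 CPM with vehicle. The 6 skeletal muscle fibre markers summed to 276 to 2985 CPM with oxaliplatin and 13.1 to 120201 CPM with vehicle, where vehicle mouse 4 held the high value. The 7 B and T lymphocyte markers summed to 5.63 to 118 CPM with oxaliplatin and 5.28 to 6.93 CPM with vehicle, with Ms4a1 and Cd3g at 0 in 1 or more oxaliplatin libraries. The plasma cell markers were 8 of 8 in the table. They summed to 333 to 1026 CPM with oxaliplatin and 274 to 295 CPM with vehicle, but this list holds Xbp1 and Derl3. Xbp1 alone had 856, 379, 167 and 146 CPM in oxaliplatin mice 2, 3, 4 and 5, and 135 to 140.3 CPM in vehicle mice. The 6 secretory epithelium markers, of which 0 were above 1 CPM in every library, went lower in part. They summed to 0.974 to 32.6 CPM with oxaliplatin and 4.62 to 99.8 CPM with vehicle. The part of these cell types in the fat results was not tested. In such bulk tissue, fewer cells of a type and less RNA per cell cannot be told apart.

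In fat, most chaperone and ATF4-arm genes were higher with oxaliplatin than with vehicle, although no gene of the tissue passed the adjusted threshold. Of the 42 genes, 33 (78.6%) had a log2 fold change above 0, against 52.4% of the 19870 genes tested. Their median log2 fold change was 0.42, against 0.03 over all genes. At an unadjusted p under 0.05, 17 were higher and 3 lower, where 13.4% of all genes were higher and 12.7% lower. In 11 genes every oxaliplatin mouse lay above every vehicle mouse and in 2 every one lay below, which held for 10.3% and 11.2% of all genes. edgeR and limma-voom called 0 of the 42 genes, while DESeq2 called 14 (12 higher, 2 lower) among 12.2% of all genes. With oxaliplatin mouse 5 left out, edgeR called 22 (18 higher, and Edem1, Phgdh, Psph and Pycr1 lower), among 25.5% of all genes. Leaving out any other fat library, it called 0 of the 42. Scaling by total counts alone moved the median of all genes to 0.288 and that of the 42 genes to 0.688.

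**Figure D1:**
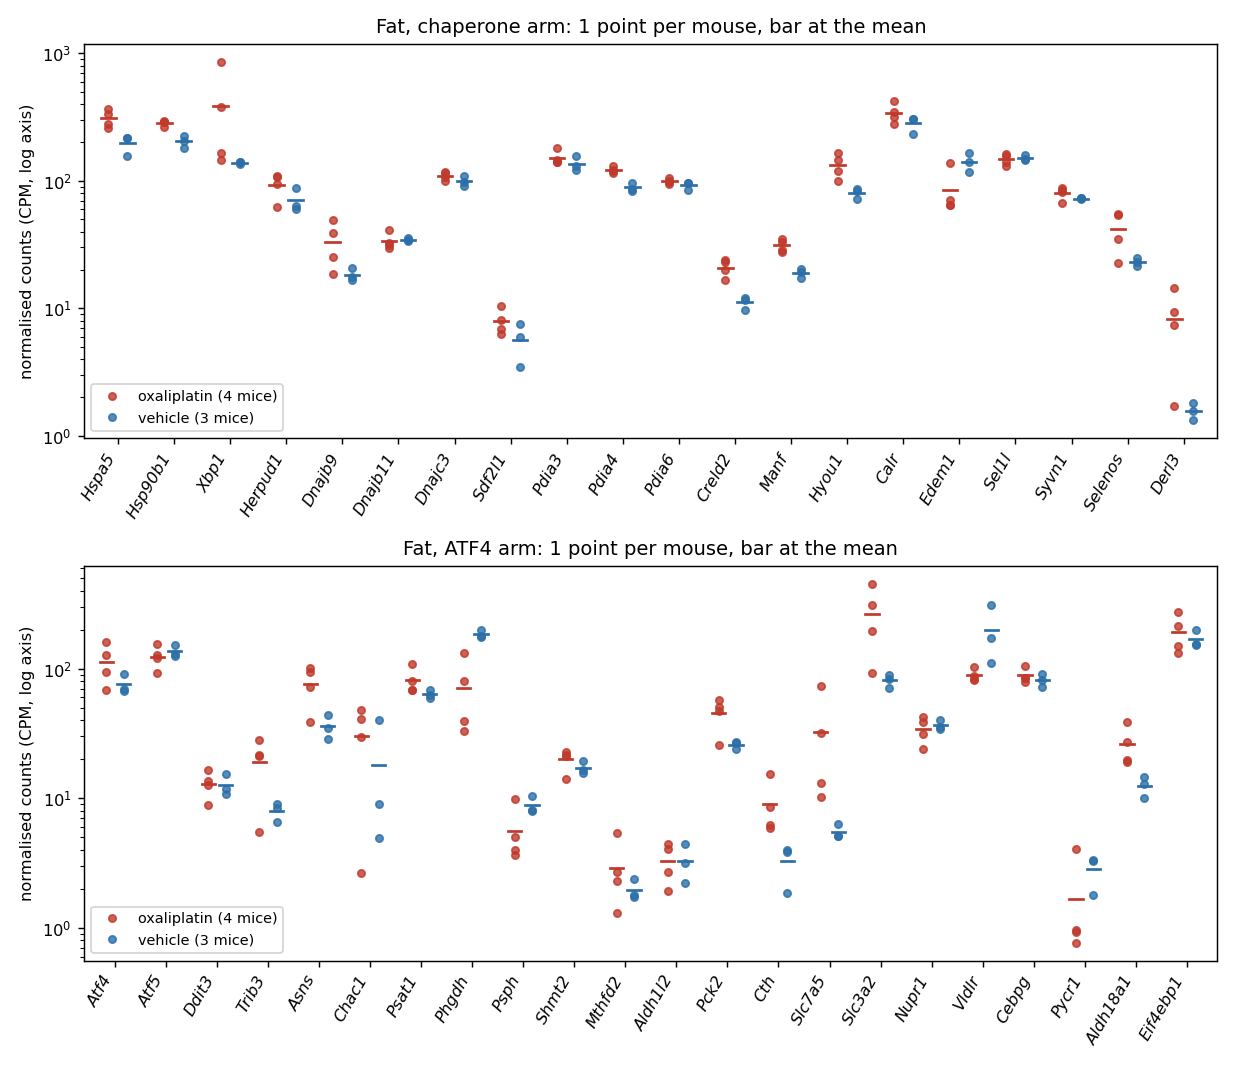
CPM in fat on a log axis for the 20 genes of the chaperone arm and the 22 of the ATF4 arm, with 1 point per mouse (4 oxaliplatin, red, left; 3 vehicle, blue, right) and a bar at each mean. Derl3, Slc7a5 and Slc3a2 have the widest separation of means upward, and Phgdh and Vldlr lie lower with oxaliplatin.

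The ER chaperones and their helpers made up most of the separated genes of the chaperone arm. The arm's median in fat was 0.46, 17 of 20 genes were above 0, 10 were higher and 1 lower at an unadjusted p under 0.05, and 7 were separated upward. Of all fat genes, 52.4% were above 0, 13.4% higher and 12.7% lower at that p, and 10.3% separated upward. Manf (chr9:106838312-106891979), a secreted protein of the stressed ER, had 33.3, 35.0, 27.7 and 28.9 CPM in oxaliplatin mice 2, 3, 4 and 5, against 17.2, 20.3 and 19.3 CPM in vehicle mice 1, 2 and 4. All oxaliplatin mice were above all vehicle mice (0.72 ± 0.13, edgeR adjusted p = 0.0916). Creld2 (chr15:88819646-88826683), an ER stress-inducible protein that acts on disulphide bonds, had 23.8, 19.8, 23.0 and 16.6 CPM with oxaliplatin, against 9.75, 12.1 and 11.7 CPM with vehicle. These groups did not overlap either (0.90 ± 0.17, edgeR adjusted p = 0.0916). Hyou1, which exchanges nucleotide on the chaperone BiP, had 146, 164, 118 and 100.3 CPM with oxaliplatin, against 71.6, 82.9 and 85.7 CPM with vehicle (0.72 ± 0.19, edgeR adjusted p = 0.117). Its vehicle mice lay close together and its oxaliplatin mice all above them.

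BiP itself is the product of Hspa5 (chr2:34771970-34777547), the Hsp70 of the ER lumen, which binds the sensors and holds them inactive. Hspa5 had 335, 365, 277 and 262 CPM in oxaliplatin mice, against 158, 218 and 218 CPM in vehicle mice (0.65 ± 0.19, edgeR adjusted p = 0.124). Hsp90b1, the Hsp90 of the ER, had 288, 295, 290.1 and 265 CPM with oxaliplatin, against 182, 223 and 206 CPM with vehicle (0.48 ± 0.13, edgeR adjusted p = 0.118). In both genes all oxaliplatin mice lay above all vehicle mice. Pdia4, a disulphide isomerase, had 114, 121, 130.04 and 119 CPM with oxaliplatin, against 86.6, 96.6 and 83.3 CPM with vehicle (0.44 ± 0.11, edgeR adjusted p = 0.114). The other disulphide isomerases, Pdia3 and Pdia6, had log2 fold changes of 0.15 and 0.11, and the lectin chaperone Calr 0.27, with overlapping groups. The J-domain co-chaperones differed among themselves, with 0.84 for Dnajb9, -0.03 for Dnajb11 and 0.14 for Dnajc3. Sdf2l1, a partner of BiP and Dnajb11, had 0.48 ± 0.30.

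Xbp1 (chr11:5520659-5525893), the transcription factor whose mRNA IRE1 splices, varied more between oxaliplatin mice than the chaperones did. It had 856, 379, 167 and 146 CPM in oxaliplatin mice 2, 3, 4 and 5, against 135, 140.3 and 140.1 CPM in vehicle mice. The groups did not overlap, but mice 4 and 5 lay close to vehicle (1.48 ± 0.62, edgeR adjusted p = 0.189). Without oxaliplatin mouse 2 the log2 fold change was 0.75. The counts sum the spliced and unspliced forms of the transcript, so splicing was not measured.

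Genes of ER-associated degradation differed in direction in fat. Derl3, a derlin of the retrotranslocation channel that secretory cells express strongly, had 7.41, 9.44, 14.4 and 1.70 CPM in oxaliplatin mice, against 1.80, 1.56 and 1.32 CPM in vehicle mice. Mice 2, 3 and 4 were above and mouse 5 was within the vehicle range (2.40 ± 0.65, edgeR adjusted p = 0.1198). Selenos, a selenoprotein that anchors the extraction complex, had 54.9, 54.4, 34.9 and 22.6 CPM with oxaliplatin, against 21.5, 24.7 and 23.3 CPM with vehicle. Edem1, a lectin that hands misfolded glycoproteins to degradation, was the other way round, with 65.1, 71.0, 64.3 and 138 CPM with oxaliplatin, against 165, 140.0 and 116 CPM with vehicle. In both genes mouse 5 lay within the vehicle range. Herpud1, a scaffold of the degradation complex, had 0.40 ± 0.23, while the ubiquitin ligase Syvn1 and its adaptor Sel1l had 0.15 and -0.04.

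**Figure D2:**
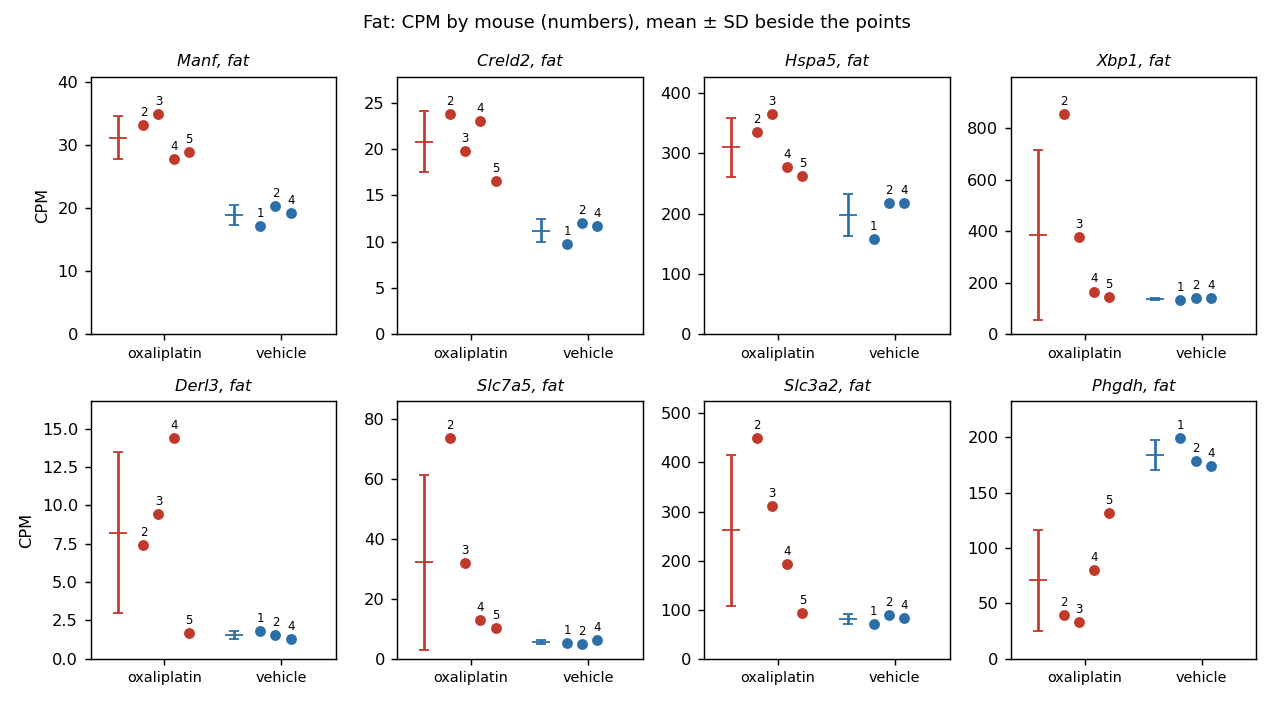
CPM in fat for 8 genes, with 1 point per mouse labelled by its number, oxaliplatin (red) left of vehicle (blue), and mean ± SD beside the points. Manf, Creld2 and Hspa5 are higher in all 4 oxaliplatin mice, Xbp1, Slc7a5 and Slc3a2 run from 856, 73.6 and 449 CPM in mouse 2 down to 146, 10.3 and 92.9 CPM in mouse 5, and Phgdh is lower in all 4.

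In the ATF4 arm in fat, the genes of amino acid uptake stood out by size. The arm's median was 0.28, with 16 of 22 genes above 0, 7 higher and 2 lower at an unadjusted p under 0.05, and 4 separated upward and 2 downward. Of all fat genes, 52.4% were above 0, 13.4% higher and 12.7% lower at that p, and 10.3% separated upward and 11.2% downward. Slc7a5 (chr8:121881150-121907694), the light chain of the LAT1 transporter of large neutral amino acids, had 73.6, 31.8, 13.1 and 10.3 CPM in oxaliplatin mice 2, 3, 4 and 5, against 5.14, 5.08 and 6.27 CPM in vehicle mice. Slc3a2 (chr19:8706882-8723369), the heavy chain that carries LAT1 to the membrane, had 449, 311, 194 and 92.9 CPM with oxaliplatin, against 70.9, 89.0 and 83.7 CPM with vehicle. Both were higher in all 4 oxaliplatin mice, with mouse 2 highest and mouse 5 lowest. The log2 fold change of Slc7a5 was 2.55 ± 0.72 (edgeR adjusted p = 0.122) and that of Slc3a2 was 1.69 ± 0.50 (edgeR adjusted p = 0.124). Without oxaliplatin mouse 2 they were 1.75 and 1.30.

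Among the synthetic enzymes, the genes for asparagine, cysteine and the first step of proline were higher in oxaliplatin fat, while those of serine synthesis differed among themselves. Aldh18a1, which makes the first intermediate of proline, had 38.9, 27.0, 19.8 and 18.9 CPM with oxaliplatin, against 10.01, 14.7 and 12.9 CPM with vehicle (1.06 ± 0.29, edgeR adjusted p = 0.118). Cth, which releases cysteine from cystathionine, had 15.4, 8.56, 6.20 and 5.94 CPM with oxaliplatin, against 4.01, 3.87 and 1.87 CPM with vehicle (1.48 ± 0.44, edgeR adjusted p = 0.125). Neither gene's groups overlapped. Asns, the asparagine synthetase, had 93.8, 102, 72.1 and 38.7 CPM with oxaliplatin, against 44.0, 34.9 and 28.7 CPM with vehicle (1.09 ± 0.34, edgeR adjusted p = 0.129). Its mouse 5 lay within the vehicle range. Pck2, the mitochondrial phosphoenolpyruvate carboxykinase, had 50.6, 47.5, 57.5 and 25.5 CPM with oxaliplatin, against 26.7, 27.0 and 23.8 CPM with vehicle, and its mouse 5 was also within the vehicle range. Pycr1, the last step of proline synthesis, had 0.920, 0.769, 0.962 and 4.06 CPM with oxaliplatin, against 1.80, 3.29 and 3.36 CPM with vehicle, lower in mice 2, 3 and 4 and above vehicle in mouse 5. Phgdh, the entry enzyme of serine synthesis, went against the arm, with 39.2, 32.8, 79.9 and 132 CPM with oxaliplatin, against 199, 178 and 174 CPM with vehicle, and no overlap. The 2 later enzymes of that route, Psat1 and Psph, had log2 fold changes of 0.35 and -0.65. With all mice, Psph had -0.65 ± 0.37 (edgeR adjusted p = 0.285) and Pycr1 -0.76 ± 0.63 (edgeR adjusted p = 0.453). Without oxaliplatin mouse 5, Psph had -1.08 ± 0.21 (edgeR adjusted p = 0.0108) and Pycr1 -1.67 ± 0.33 (edgeR adjusted p = 0.0109). That smaller fit called 25.5% of all genes. The mitochondrial folate genes Shmt2, Mthfd2 and Aldh1l2 had 0.22, 0.56 and 0.00.

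The transcription factors Atf4, Atf5, Ddit3 and Cebpg had log2 fold changes of -0.14 to 0.58 in fat. Atf4 had 128, 161, 94.0 and 68.1 CPM in oxaliplatin fat, against 67.2, 69.2 and 90.6 CPM in vehicle fat, and the groups overlapped through mouse 5 (0.58 ± 0.29, edgeR adjusted p = 0.247). Ddit3, which encodes CHOP, the factor of prolonged ER stress, had 8.93, 16.4, 13.7 and 12.6 CPM with oxaliplatin, against 11.7, 15.4 and 10.8 CPM with vehicle (0.03 ± 0.23, edgeR adjusted p = 0.950). Atf5 and Cebpg, partners and relatives of ATF4, had -0.14 and 0.12. Trib3, a pseudokinase that restrains ATF4 and AKT, had 21.3, 28.1, 21.6 and 5.47 CPM with oxaliplatin, against 8.34, 8.95 and 6.49 CPM with vehicle, so mice 2, 3 and 4 lay above and mouse 5 below all vehicle mice. Chac1, which breaks down glutathione, overlapped, with 40.5, 48.0, 29.6 and 2.65 CPM with oxaliplatin, against 9.01, 4.97 and 40.5 CPM with vehicle. Nupr1 and Eif4ebp1 had -0.11 and 0.19, with overlapping groups. Vldlr (chr19:27216484-27254231), a lipoprotein receptor that ATF4 raises in other settings, had 83.0, 81.2, 104 and 87.8 CPM with oxaliplatin, against 172, 110 and 310 CPM with vehicle. It was lower in every oxaliplatin mouse (-1.15 ± 0.32, edgeR adjusted p = 0.121). Its highest value was in vehicle mouse 4, the library rich in muscle fibre transcripts, and without that mouse the log2 fold change was -0.64.

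Oxaliplatin mouse 5 was the mouse closest to vehicle in fat. Its value was within the vehicle range for 14 of the 42 genes, against 5, 5 and 8 genes in mice 2, 3 and 4. It was above the vehicle range for 20 genes, against 28, 30 and 23 in mice 2, 3 and 4, where 28.3%, 36.5%, 36.8% and 35.2% of all genes were above. The mean log2 level of the chaperone arm, relative to the vehicle mean, was 0.59, 0.59, 0.41 and 0.26 in oxaliplatin mice 2, 3, 4 and 5, against -0.11, 0.08 and 0.03 in vehicle mice 1, 2 and 4. That of the ATF4 arm was 0.49, 0.43, 0.22 and 0.04, against -0.05, -0.05 and 0.10. Thus all 4 oxaliplatin mice were above vehicle in the chaperone arm, and 3 of 4 in the ATF4 arm.

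**Figure D3:**
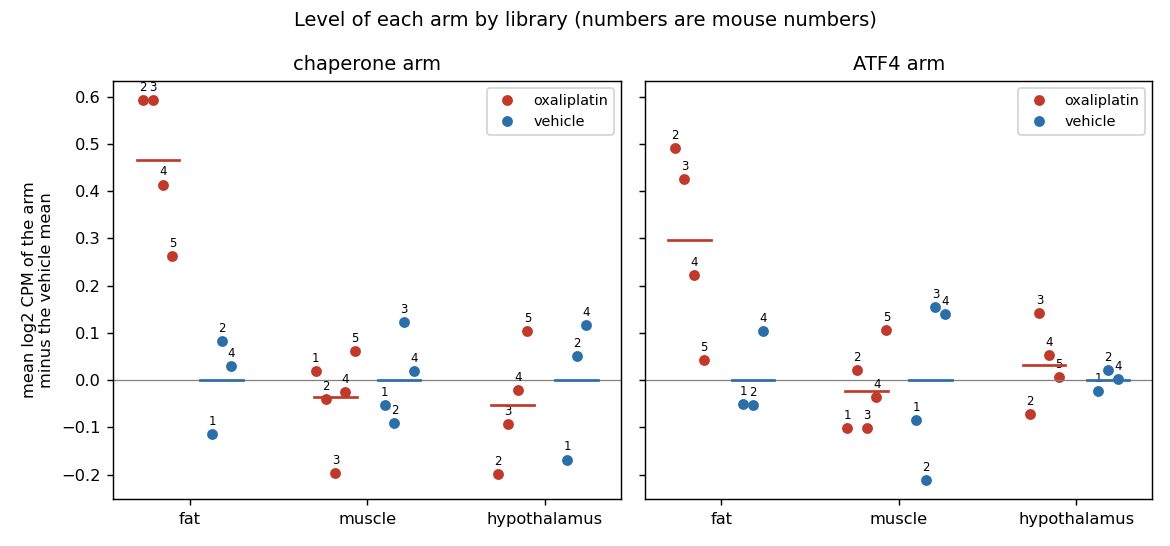
Mean log2 CPM of each arm by library, minus the vehicle mean of the tissue, with oxaliplatin (red) left of vehicle (blue), mouse numbers beside the points and a bar at each mean. In fat all oxaliplatin chaperone levels (0.26 to 0.59) lie above the vehicle ones (-0.11 to 0.08), while in muscle and hypothalamus the groups overlap.

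In muscle, with mouse 5 counted as oxaliplatin, the 42 genes showed no common shift. Derl3 was at 0 to 0.148 CPM with oxaliplatin and 0.0349 to 0.198 CPM with vehicle and was not tested. Of the other 41, 21 were above 0, with a median of 0.01, against -0.01 over all 14737 genes tested. At an unadjusted p under 0.05, 1 was higher and 4 were lower, where 4.8% of all genes were higher and 4.79% lower. In 0 genes the oxaliplatin mice all lay above the vehicle mice and in 2 all below, which held for 2.18% and 1.7% of all genes. edgeR and limma-voom called 0 members, and DESeq2 called Vldlr, among 1.72% of all genes. Counting mouse 5 as vehicle, 13 of the 41 were above 0, with a median of -0.06, against -0.01 over all genes. The 6 muscle fibre markers summed to 122996 to 168661 CPM with oxaliplatin and 123937 to 168214 CPM with vehicle, while fibroblast markers summed to 347 to 715 CPM with oxaliplatin and 456 to 1565 CPM with vehicle.

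Vldlr had the smallest p of the 42 genes in muscle. It had 215, 156, 163, 151 and 154 CPM in oxaliplatin mice 1 to 5, against 225, 222, 250 and 254 CPM in vehicle mice 1 to 4. All oxaliplatin mice were lower, mouse 1 by the least (-0.50 ± 0.13, edgeR adjusted p = 0.205). Counting mouse 5 as vehicle gave -0.37. Nupr1, a small nuclear protein of the stress response, had 7.28, 13.7, 8.95, 8.65 and 8.44 CPM with oxaliplatin, against 12.02, 11.2, 17.2 and 24.5 CPM with vehicle. Its mouse 2 overlapped vehicle (-0.79 ± 0.24, edgeR adjusted p = 0.273). Herpud1 had 74.1, 83.8, 85.1, 81.3 and 88.3 CPM with oxaliplatin, against 98.4, 93.9, 115 and 98.9 CPM with vehicle, with no overlap (-0.30 ± 0.11, edgeR adjusted p = 0.363).

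Both proline genes had negative log2 fold changes in muscle, with overlapping groups. Pycr1 had 1.84, 3.41, 2.35, 3.28 and 3.06 CPM, against 3.45, 2.85, 5.38 and 4.72 CPM with vehicle (-0.56 ± 0.24, edgeR adjusted p = 0.469), and Aldh18a1 had -0.50 ± 0.27 (edgeR adjusted p = 0.615). Both had their highest values in vehicle mice 3 and 4. In these mice the mean log2 level of adipocyte markers was 0.80 and 1.34, against -1.15 and -0.99 in vehicle mice 1 and 2, and that of macrophage markers was 0.46 and 1.51, against -1.32 and -0.64. The part of those cells in the muscle results was not tested. Manf was the 1 gene higher at an unadjusted p under 0.05, with 9.10 to 11.8 CPM (median 11.5) in oxaliplatin and 8.16 to 9.61 CPM in vehicle mice (0.29 ± 0.13, edgeR adjusted p = 0.467). Among the remaining genes of smallest p, Pck2 had 0.27 ± 0.14, Ddit3 0.35 ± 0.20, Selenos -0.20 ± 0.12, Edem1 -0.41 ± 0.27 and Xbp1 0.22 ± 0.18. Hspa5 was at 207, 219, 211, 217 and 253 CPM with oxaliplatin, against 197, 185, 219 and 218 CPM with vehicle (0.11 ± 0.12, edgeR adjusted p = 0.868). Atf4 was at 75.2, 43.7, 50.8, 42.9 and 58.5 CPM, against 56.8, 52.5, 52.2 and 37.0 CPM with vehicle (0.13 ± 0.18, edgeR adjusted p = 0.910). Eif4ebp1, a repressor of cap-dependent translation, had 129 CPM in oxaliplatin mouse 1 and 80.5 CPM in mouse 5, and 35.1 to 52.8 CPM in the others, against 27.6 to 49.7 CPM with vehicle (0.63 ± 0.38). Slc7a5 was below 1 CPM in every muscle library, and Slc3a2 had 0.23 ± 0.15.

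In hypothalamus the levels of both arms overlapped between oxaliplatin and vehicle mice. Of the 42 genes, 19 were above 0 and the median was -0.03, against 0.01 over all 18941 genes tested, with -0.03 for the chaperone arm and 0.12 for the ATF4 arm. Leaving out 1 library took the chaperone median to between -0.12 (without vehicle mouse 1) and 0.02 (without vehicle mouse 4), and the ATF4 median to between 0.06 (without oxaliplatin mouse 2) and 0.10. At an unadjusted p under 0.05, 2 were higher and 2 lower, where 6.2% of all genes were higher and 4% lower. Separated groups were found for 2 genes upward and 2 downward, against 5.58% and 4.35% of all genes. edgeR and limma-voom called 0 members, and DESeq2 called Slc7a5, among 1.38% of all genes. The 5 neuron markers summed to 1801 to 2634 CPM with oxaliplatin and 2136 to 2310 CPM with vehicle. The 5 oligodendrocyte markers summed to 1750 to 4097 CPM with oxaliplatin and 3770 to 4543 CPM with vehicle, and the 5 endothelial markers to 115 to 187 CPM with oxaliplatin and 66.2 to 75.1 CPM with vehicle. The 4 microglia markers summed to 34.9 to 71.0 CPM with oxaliplatin and 64.4 to 78.7 CPM with vehicle. The pituitary markers, 4 of 6 of them in the table, summed to 4.51 to 17.7 CPM with oxaliplatin and 23.4 to 41.2 CPM with vehicle. The part of these cell types in the hypothalamus results was not tested.

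In hypothalamus Slc7a5 had the smallest p of the 42 genes. It had 114, 121, 110 and 104 CPM in oxaliplatin mice 2, 3, 4 and 5, against 84.8, 86.9 and 94.1 CPM in vehicle mice 1, 2 and 4. No oxaliplatin mouse overlapped vehicle (0.34 ± 0.09, edgeR adjusted p = 0.285). Eif4ebp1 was separated upward at low level, with 2.66, 3.13, 2.11 and 2.10 CPM with oxaliplatin, against 1.20, 1.84 and 1.99 CPM with vehicle (0.58 ± 0.26, edgeR adjusted p = 0.491). Shmt2, the mitochondrial enzyme that splits serine for folate, had 21.3, 22.002, 20.4 and 15.4 CPM with oxaliplatin, against 13.7, 17.3 and 16.0 CPM with vehicle (0.34 ± 0.14, edgeR adjusted p = 0.474). Its mouse 5 overlapped vehicle.

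Aldh1l2, the mitochondrial dehydrogenase that returns formyl units from folate, was separated downward in hypothalamus. It had 2.66, 4.69, 3.50 and 4.90 CPM with oxaliplatin, against 5.71, 6.66 and 5.13 CPM with vehicle (-0.57 ± 0.22, edgeR adjusted p = 0.453). Chac1 was also separated, with 6.48, 6.58, 6.92 and 6.17 CPM with oxaliplatin, against 7.70, 7.56 and 8.27 CPM with vehicle (-0.26 ± 0.13, edgeR adjusted p = 0.519). Sdf2l1 had 3.91, 4.69, 6.65 and 8.02 CPM with oxaliplatin, against 6.81, 9.93 and 10.5 CPM with vehicle, with overlap (-0.64 ± 0.26, edgeR adjusted p = 0.457). Pycr1 had -0.48 ± 0.29. The remaining chaperone genes of smallest p were Creld2 (-0.34 ± 0.20), Selenos (0.18 ± 0.11), Herpud1 (0.15 ± 0.09), Dnajc3 (0.10 ± 0.09) and Hyou1 (-0.14 ± 0.13). Hspa5 had 246, 297, 291 and 324 CPM with oxaliplatin, against 231, 300 and 301 CPM with vehicle (0.06 ± 0.12). Atf4, Xbp1 and Ddit3 had 0.15 ± 0.11, -0.04 ± 0.11 and 0.12 ± 0.13. Oxaliplatin mouse 2 was the lowest oxaliplatin library for 23 of the 42 genes, against 29.6% of all genes, and vehicle mouse 1 had the lowest vehicle level of the chaperone arm (-0.17).

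**Figure D4:**
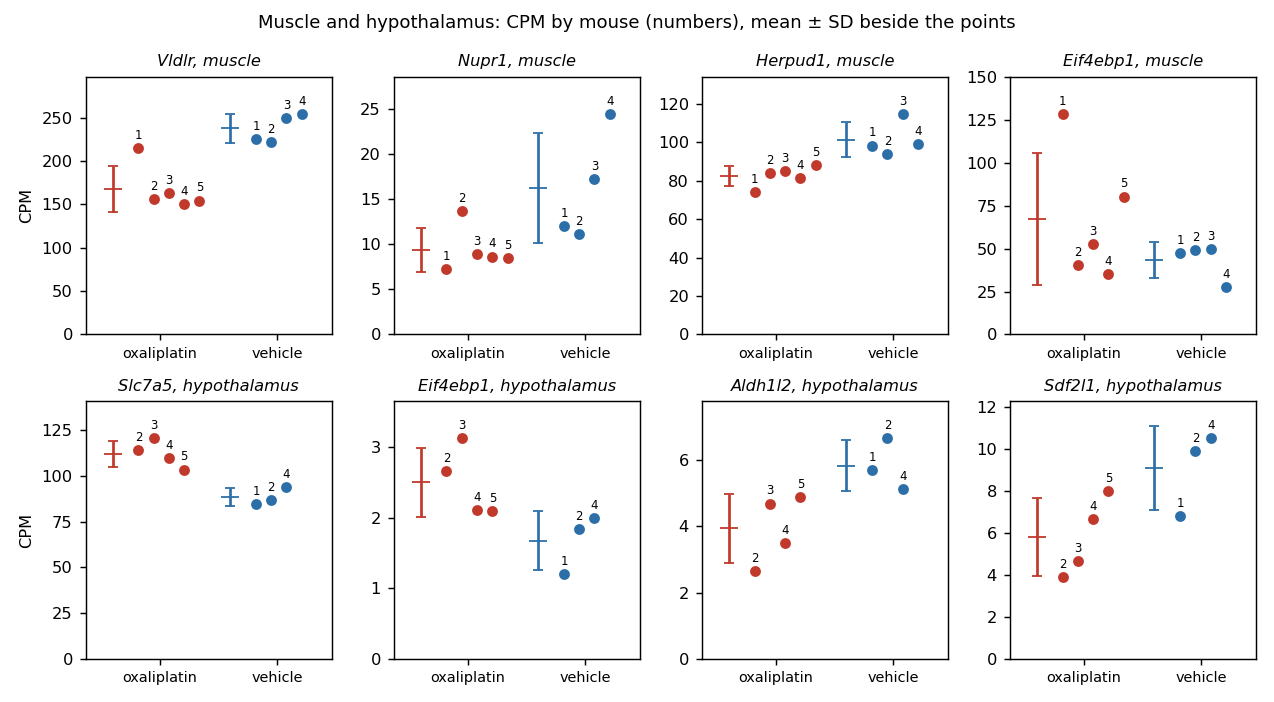
CPM by mouse for 4 genes in muscle (top) and 4 in hypothalamus (bottom), oxaliplatin (red) left of vehicle (blue), with mouse numbers at the points and mean ± SD beside them. Vldlr and Herpud1 in muscle and Aldh1l2 in hypothalamus are lower in all oxaliplatin mice, and Slc7a5 and Eif4ebp1 in hypothalamus are higher in all, while the other 3 panels overlap.

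The effect in fat was set against that in the other tissues by testing the difference of the 2 log2 fold changes over all genes. edgeR called 45 genes (0.239%) for fat minus muscle, 65 (0.311%) for fat minus hypothalamus and 12 (0.0689%) for muscle minus hypothalamus, and 0 of the 42 genes in each. At an unadjusted p under 0.05, the log2 fold change of 15 of the 42 was higher and of 0 lower in fat than in muscle. Of all genes, 8.37% were higher and 8.64% lower. The 15 include Derl3, which was at or below 0.198 CPM in every muscle library and was not tested in muscle alone. In fat against hypothalamus 16 were higher and 3 lower, where the shares of all genes were 8.14% and 11.6%. In muscle against hypothalamus 2 were higher and 3 lower, where they were 4.12% and 5.21%. DESeq2 called 6 of the 42 for fat minus muscle (among 4.26% of all genes), 10 for fat minus hypothalamus (6.09%) and 0 for muscle minus hypothalamus (1.12%), and limma-voom 0 in each. With animal as a random effect over all 3 tissues, taking equal mouse numbers of a group as 1 animal, limma-voom called Creld2 (limma adjusted p = 0.0142) and Hyou1 (limma adjusted p = 0.0388) for fat minus hypothalamus, among 2.56% of all genes. With fat oxaliplatin mouse 5 left out, edgeR called 13 for fat minus muscle (12 higher, 1 lower, among 8.64% of all genes). It called 14 for fat minus hypothalamus (10 higher, 4 lower, among 15.2%). Leaving out any other library, it called 0 of the 42 for fat minus muscle and 0 or 1 for fat minus hypothalamus. Median differences were 0.48, 0.50 and 0.02, against 0.04, -0.03 and -0.01 over all genes.

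The genes of smallest p in both fat contrasts differed by 0.86 to 1.58 in size on the log2 scale. Of them Vldlr alone had the lower log2 fold change in fat. For fat minus muscle, Aldh18a1 differed by 1.58 ± 0.41 (edgeR adjusted p = 0.0896), Creld2 by 0.95 ± 0.25 (edgeR adjusted p = 0.0935) and Selenos by 1.09 ± 0.31 (edgeR adjusted p = 0.119). For fat minus hypothalamus, Creld2 differed by 1.23 ± 0.29 (edgeR adjusted p = 0.0681), Hyou1 by 0.86 ± 0.24 (edgeR adjusted p = 0.103) and Vldlr by -1.26 ± 0.35 (edgeR adjusted p = 0.108). For muscle minus hypothalamus, Vldlr differed by -0.59 ± 0.18 (edgeR adjusted p = 0.266), Herpud1 by -0.41 ± 0.14 (edgeR adjusted p = 0.316) and Pck2 by 0.43 ± 0.18 (edgeR adjusted p = 0.457).

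Across the 3 tissues, 8 of the 41 genes tested in all of them (19.5%) had a log2 fold change above 0 in each. Another 4 (9.76%) were below 0 in each. Over all genes these shares were 15.5% and 16.9%, so the share above 0 lay near that of all genes. The 8 were Hspa5, Atf4, Ddit3, Trib3, Shmt2, Cth, Slc3a2 and Eif4ebp1, and the 4 were Sel1l, Phgdh, Nupr1 and Pycr1. Of them Hspa5 reached 0.65 in fat, 0.11 in muscle and 0.06 in hypothalamus, and Slc3a2 1.69, 0.23 and 0.12. Some of these signs rest on values below their SE. Fat Ddit3 had 0.03 ± 0.23, hypothalamus Hspa5 0.06 ± 0.12 and muscle Atf4 0.13 ± 0.18. Each of these 3 values fell below 0 in at least 1 fit with a library left out. Muscle Hspa5 was also below 0 with mouse 5 counted as vehicle. Mouse numbers recur across tissues, but the labels do not say that they mark the same animals.

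**Figure D5:**
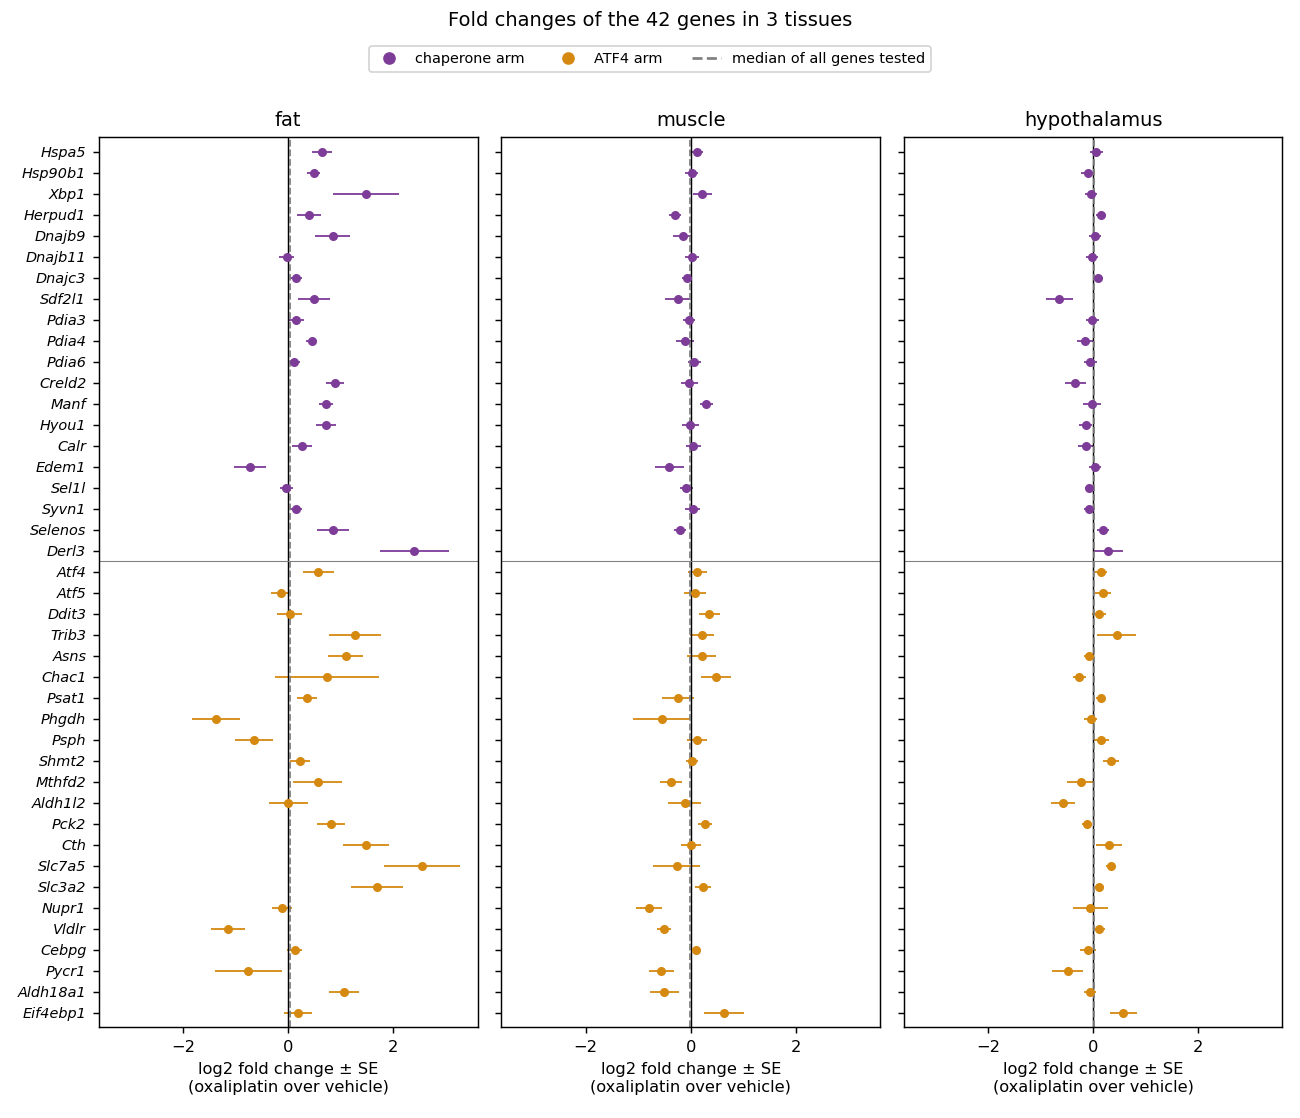
Log2 fold change (oxaliplatin over vehicle) ± SE of each gene in fat, muscle and hypothalamus, chaperone arm (purple) above ATF4 arm (orange), with the median of all genes as a dashed line. In fat 33 of 42 points lie right of 0, in muscle 21 of 41 and in hypothalamus 19 of 42.

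Mean levels per length (CPM per kilobase of the union of annotated exons) showed which members were highest in each tissue. In muscle Hspa5 was highest, at 52.4 with oxaliplatin and 48.5 with vehicle, followed by Herpud1 at 35.4 and 43.5, and Vldlr was at 16.7 and 23.6. In fat Xbp1 and Calr were highest with oxaliplatin, Xbp1 at 119 with oxaliplatin and 42.6 with vehicle, and Calr at 118 and 98.1. The oxaliplatin mean of Xbp1 leans on mouse 2, with 856 CPM, against 379, 167 and 146 CPM in mice 3, 4 and 5. Phgdh was at 28.5 with oxaliplatin and 73.9 with vehicle, where it ranked the third of the 42. In hypothalamus Calr was highest, at 94.1 with oxaliplatin and 104 with vehicle, followed by Hsp90b1 at 68.7 and 73.7. Trib3, at 0.473 with oxaliplatin and 0.346 with vehicle, and Pycr1, at 0.354 and 0.495, were lowest there. Muscle libraries were made with another kit than those of the other tissues, so levels are not compared between tissues.

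Further genes of both responses were counted in 10 lists, which share Dnajc3 (also an inhibitor of eIF2 alpha kinases) with the 42, and edgeR called none of them in fat, while at an unadjusted p under 0.05 some lists had members in both directions. Beside the counts of these lists stand the shares of all fat genes at that p, 13.4% higher and 12.7% lower, and most lists lie near or below them. Among 11 sensors and regulators, 2 were higher and 1 lower at an unadjusted p under 0.05, with a median of 0.03. Ern1, which encodes IRE1, averaged 68.4 ± 21.4 CPM in oxaliplatin fat and 37.1 ± 6.03 CPM in vehicle fat (SD, n = 4 and 3, 0.88 ± 0.28, edgeR adjusted p = 0.131), and Creb3l2, an ER-bound relative of ATF6, had -0.36 ± 0.10. Of 14 genes of the eIF2 alpha kinases, phosphatases and eIF2B, 2 were higher and 1 lower, and Ppp1r15a (GADD34), which brings the phosphatase to eIF2 alpha, averaged 36.0 ± 15.4 CPM with oxaliplatin and 16.3 ± 0.912 CPM with vehicle. Of 23 other ATF4 targets and stress hormones, 6 were higher and 3 lower (median 0.29). In this list 12 genes lay above 0 and 11 below (52.2% above), where 52.4% of all fat genes were above 0. Gdf15, a stress hormone that acts on appetite through the brainstem, lay at 4.65 to 5.96 CPM in oxaliplatin and 0.385 to 1.16 CPM in vehicle fat (2.99 ± 0.42, edgeR adjusted p = 0.0751). The groups did not overlap, and this adjusted p, the smallest in fat, was shared by 43 genes.

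Of 24 other ER folding genes tested in fat, 2 were higher and 1 lower (median 0.15), of 21 other degradation genes 2 and 2 (-0.02), and of 19 translocation and transport genes of the XBP1 programme 3 and 0 (0.03). The members of smallest p were Pdia5 (0.53 ± 0.16), Sec61a1 (0.42 ± 0.15) and Sec63 (0.57 ± 0.21). Of 20 cytosolic tRNA synthetases, which ATF4 also raises, 1 was higher and 0 lower (0.08), with Farsa at 0.44 ± 0.11. Of 20 cytosolic heat shock genes, 0 were higher and 2 lower (-0.22), led by Cryab at -2.69 ± 0.56, a small heat shock protein that muscle fibres express strongly. Of 14 mitochondrial chaperones and proteases, 1 was higher and 1 lower (0.18), with Trap1 at -0.49 ± 0.13. Of 16 other one-carbon and glycine genes, 4 were higher and 2 lower (-0.07), and Cbs and Ahcy, of homocysteine metabolism, averaged 62.8 ± 51.3 and 188 ± 139 CPM with oxaliplatin, against 7.46 ± 2.38 and 21.2 ± 6.52 CPM with vehicle.

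In muscle and hypothalamus, 0 to 4 genes of each further list passed an unadjusted p under 0.05 in a direction, where 4.8% of all muscle genes were higher and 4.79% lower and 6.2% of all hypothalamus genes higher and 4% lower, and no gene of them was called by edgeR. In muscle, Pdia5, a disulphide isomerase, averaged 3.07 ± 0.361 CPM with oxaliplatin and 1.38 ± 0.270 CPM with vehicle (SD, n = 5 and 4, 1.15 ± 0.21, edgeR adjusted p = 0.0541). Ppp1r15a averaged 40.6 ± 15.5 CPM with oxaliplatin and 20.2 ± 7.07 CPM with vehicle there (1.01 ± 0.30, edgeR adjusted p = 0.257). Slc6a9, a glycine transporter, averaged 2.67 ± 0.843 CPM with oxaliplatin and 5.81 ± 1.68 CPM with vehicle (-1.12 ± 0.25, edgeR adjusted p = 0.112). In hypothalamus, Ddit4, an inhibitor of mTORC1, averaged 99.9 ± 33.9 CPM with oxaliplatin and 33.9 ± 4.55 CPM with vehicle (SD, n = 4 and 3, 1.56 ± 0.29, edgeR adjusted p = 0.172), and Gpt2, a mitochondrial alanine transaminase, had 0.66 ± 0.16.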

How the data were processed

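The authors deposited 1 table per tissue of expected counts, which are unscaled estimates of the reads of each gene and need not be whole. Per the submitters' processing notes, STAR 2.5.1a, Partek and DESeq2 were used, with no roles given. Per the labels' protocols, muscle libraries were made with a SMARTer kit and the others with a RiboErase kit. The expected counts were rounded. No source used here names a genome build. Gene starts equalled those of GENCODE M21 (GRCm38) for 99.4% to 99.5% of shared identifiers, and coordinates are on that build, counted from 1. The smallest sum of a row over its libraries was 10.

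Each tissue was fitted with edgeR 4.0.16 (R 4.3.3): filterByExpr (minimum count 10, minimum total 15), TMM factors, robust quasi-likelihood F test and Benjamini-Hochberg adjustment over all genes, threshold 0.05. The filter kept 14737 muscle, 19870 fat and 18941 hypothalamus genes. The plan had assumed whole counts. Differences between tissues came from 1 fit over both. Arm levels are mean log2 CPM (prior count 2). The fits were tested on simulated data. DESeq2 1.42.0, limma-voom 3.58.1, other scalings and filters, and each library left out were alternatives. No library was a copy of another (lowest chi-square per degree of freedom 7.37 over 34 pairs). The deeper a library, the smaller its counting error.

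Members and gene lists were chosen with earlier results of these data known. Full statistics are given, per tissue and arm, for members called and the 6 of smallest p, per pair of tissues for the 3 of smallest p, and for up to 2 genes of each further list. Hspa5, Xbp1, Atf4 and Ddit3, and the members given by values alone, were chosen after their values were seen.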

Additional observations from a re-analysis of the deposited data

Results flagged for a closer look

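Of 66 groups of library values tested for a value far from the others, 2 were marked, where chance marks about 1 in 20. The vehicle groups of fat and hypothalamus, of 3 libraries each, were too small for this test and were left out of it. In muscle, Hspa5 had 253 CPM in oxaliplatin mouse 5, against 207 to 219 CPM in the other oxaliplatin mice. That library is the one with a vehicle treatment entry, and its value is above the vehicle range. In muscle, Vldlr had 215 CPM in oxaliplatin mouse 1, against 151 to 163 CPM in the other oxaliplatin mice.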

How the results depend on the processing

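The count of called genes depended on the tool and on single libraries. With DESeq2, muscle had 254 called genes, fat 2434 and hypothalamus 262, with 804 for fat minus muscle, 1273 for fat minus hypothalamus and 195 for muscle minus hypothalamus, and of the 42 genes 1, 14, 1, 6, 10 and 0 in that order. limma-voom called 13 in muscle, 11 in hypothalamus and 104 for fat minus hypothalamus. 1 fit over 3 tissues, with 18502 genes tested, called 91 in muscle, 2909 in fat and 55 in hypothalamus. In fat 18 of the 42 were called in it, among 15.7% of all genes. Counting muscle mouse 5 as vehicle left 0 in muscle, 13 for fat minus muscle and 0 for muscle minus hypothalamus, and muscle Hspa5 at -0.0077. With no filter 42 were called in muscle, and with a mean of at least 1 CPM 122 for fat minus hypothalamus. Total counts alone gave 9 in muscle and 7 for muscle minus hypothalamus, with fat medians of 0.71 for the chaperone arm and 0.55 for the ATF4 arm. Animal as a random effect (limma-voom) gave 231 for fat minus muscle, 474 (Creld2 and Hyou1 of the 42) for fat minus hypothalamus and 0 for muscle minus hypothalamus.

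Leaving out 1 library gave 2 to 17 genes in muscle (over 1.5 times fewer without any oxaliplatin mouse or vehicle mouse 1 or 3). In fat it gave 0 to 4969 (6 without oxaliplatin mouse 2, 4969 without mouse 5), with 0 to 22 of the 42. In hypothalamus it gave 0 to 655 (655 without oxaliplatin mouse 5, 31 without mouse 2, at most 6 without any other). It gave 14 to 1626 for fat minus muscle (0 to 13 of the 42), 3 to 3151 for fat minus hypothalamus (0 to 14 of the 42) and 2 to 110 for muscle minus hypothalamus. The highest of these came without fat oxaliplatin mouse 5, or hypothalamus oxaliplatin mouse 5 for the last. For fat minus hypothalamus, 1 of the 42 was called without fat vehicle mouse 2 (among 0.31% of all genes) and without hypothalamus oxaliplatin mouse 5 (0.566%). Over these settings muscle Atf4 ran from -0.019 (without oxaliplatin mouse 1) to 0.21, fat Ddit3 from -0.10 (without oxaliplatin mouse 3; -0.03 and -0.06 without vehicle mice 1 and 4) to 0.19, hypothalamus Hspa5 from -0.061 (without vehicle mouse 1; also below 0 without oxaliplatin mouse 5) to 0.13 and hypothalamus Xbp1 from -0.15 to 0.042 (without vehicle mouse 4; 0.019 without oxaliplatin mouse 2). The cause was not tested.

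Deviations of same-numbered oxaliplatin and vehicle libraries correlated at -0.28 to 0.17. The labels do not say whether equal numbers mark a shared cage or batch, and so few pairs cannot decide it. With the number as a replicate block, muscle had 3 called genes, fat 0 and hypothalamus 37, none of them among the 42. Fat Ddit3 was then -0.23, hypothalamus Hspa5 -0.17 and Dnajc3 -0.014, and the hypothalamus chaperone median -0.18.

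Of the other values of single genes, 1747 kept direction and side of the threshold and 119 passed it, of which 57 were for the 42 genes. In muscle the filter on low counts left out Derl3, which was at or below 0.198 CPM there.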
